A study of Mus musculus with 14 samples.

Results

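The cell cycle genes described here are 47 genes that act at the entry into division, in DNA replication or in mitosis. They were taken by symbol from the count tables of a study of Lhx2, a LIM-homeodomain transcription factor, in mouse neocortex, and are 47 of the 55892 symbols in either table. Each had a row in both tables, and each passed the filter on low counts in both. They were split by role into 20 S phase members (8 regulators of G1 and of the step into S phase, and 12 genes of DNA replication and nucleotide supply) and 27 members of G2 and mitosis. RNA was polyadenylated RNA from layer II/III tissue, microdissected at postnatal day 5 from cortices that had been electroporated in utero. The study's text gives E15.5 as the day for the progenitor experiment, and a similar procedure, with no day of its own, for the postmitotic one. All 4 groups carried Lhx2lox/lox and received a plasmid with EGFP, which marks the cells that took it up and their daughters. In the progenitor experiment, controls received the EGFP plasmid (n = 4), and the libraries labelled mutant came from cortices given a Cre-EGFP plasmid (n = 4). In the postmitotic experiment, controls were Lhx2lox/lox with the EGFP plasmid (n = 3), and the libraries labelled mutant came from NexCre/+; Lhx2lox/lox cortices with the same plasmid (n = 3). In NexCre mice, Cre is expressed from Neurod6, which switches on in excitatory neurons soon after their last division. The plasmid reaches only part of the cells of a dissected layer, so each library also holds RNA from cells without it. In the progenitor libraries labelled mutant those cells received no Cre. In the postmitotic experiment Cre comes from the NexCre allele and does not depend on the plasmid.

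A dividing cell passes through G1, S phase, G2 and mitosis. D-type cyclins with Cdk4 and Cdk6, then E-type cyclins with Cdk2, inactivate the retinoblastoma proteins and free E2F factors, which switch on the genes of DNA synthesis. Later, cyclins A and B with Cdk1 drive mitosis, whose genes are switched on in G2 through promoter elements called the cell cycle homology region and the CCAAT box. In the cortex at postnatal day 5 the excitatory neurons have left the cycle, while glial progenitors, endothelial cells and microglia still divide. In bulk tissue, a different number of cells of one type and a different amount of RNA per cell cannot be told apart.

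The 8 progenitor libraries held 22677019 to 29497595 counts each, and the 6 postmitotic libraries 21605777 to 25891416. The summed level of 10 layer II/III neuron markers was 3777 to 4144 CPM (counts scaled to the library total with TMM factors) in the progenitor and 4297 to 4767 CPM in the postmitotic libraries. Lhx2, which was to be deleted, was not lower under the mutant label, though counts over a whole gene can miss the loss of part of it. It ranged from 120.0 to 139 CPM in the progenitor controls and from 114 to 139.6 CPM in the libraries labelled mutant. In the postmitotic experiment it ranged from 143 to 150.3 CPM in controls and from 171 to 184 CPM under the mutant label. There Lhx2 was higher under the mutant label, with a log2 fold change of 0.29 (SE 0.06, adjusted p = 0.0276, Benjamini-Hochberg, quasi-likelihood test of edgeR). For these reasons groups are called by their labels only. Y-linked genes summed to more than 1 CPM in 0 of 4 progenitor controls but in 3 of 4 progenitor libraries labelled mutant (2, 3 and 4), and in 2 of 3 postmitotic controls (1 and 2) but in 1 of 3 postmitotic libraries labelled mutant (3). Labelled mutant 3 of the progenitor experiment held both Y-linked counts (99.8 CPM) and 557 CPM of Xist, the RNA that coats the silenced X. The labels do not say that each library is a separate animal, so p-values cover the spread between libraries, part of which may be technical.

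The promoters of the members were searched for the letters of the elements named above; the classes hold 6 to 23 promoters each, and no test compared them. RefSeq promoter windows (GRCm38.p6) of 250 bases before to 50 after the start were at hand for 39 members. The cell cycle homology region was searched as TTTGAA or TTTAAA, the CCAAT box as CCAAT, and the E2F site as TTTCGCGC or TTTGGCGC or GGCGGGAA, each on both strands. The homology region matched in 21 of 23 mitosis promoters (91.3%), in 4 of 10 replication promoters (40.0%) and in 1 of 6 promoters of G1 regulators (16.7%), beside 27.8% of all 27025 promoter windows. A CCAAT box matched in 82.6% of the mitosis and 80.0% of the replication promoters, beside 37.9% of all. At least 2 of them stood in 12 mitosis promoters (52.2%), beside 12.2% of all. E2F letters matched in 5 of 10 replication promoters, 2 mitosis promoters (8.7%) and 0 of the 6 of G1 regulators, beside 3.0% of all. For the G1 regulators E2f1 and Cdk6, and for Cdca8 and Mcm7, the RefSeq start lies inside the gene as annotated by GENCODE. Their windows do not reach the GENCODE start. A match of letters describes the sequence and says nothing about binding.

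**Figure D1:**
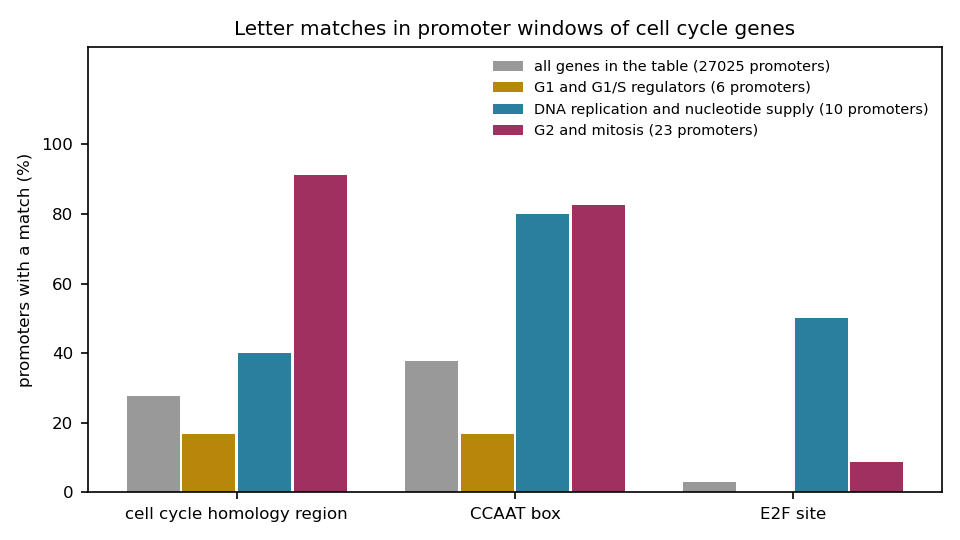
Share of promoter windows with a letter match, in percent, for all 27025 windows (grey) and for the members by role. Cell cycle homology letters mark 91.3% of the mitosis promoters, and E2F letters 5 of 10 replication promoters.

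The promoter sequences below belong to members on which the comparisons turn: 5 mitosis genes, Rrm2 for nucleotide supply, and Mcm6, which alone was called in the postmitotic experiment. Each is the 150 bases just before the RefSeq start on GRCm38.p6, written 5′ to 3′ on the gene's own strand, and capitals mark the letters searched for on either strand.
Top2a promoter, chr11:99024190-99024339, minus strand: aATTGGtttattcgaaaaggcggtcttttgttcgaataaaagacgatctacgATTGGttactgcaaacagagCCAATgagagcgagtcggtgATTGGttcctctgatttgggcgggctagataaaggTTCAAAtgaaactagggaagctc
Kif11 promoter, chr19:37376232-37376381, plus strand: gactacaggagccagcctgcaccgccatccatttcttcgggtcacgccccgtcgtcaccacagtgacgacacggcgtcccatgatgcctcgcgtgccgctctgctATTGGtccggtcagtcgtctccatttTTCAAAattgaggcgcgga
Mki67 promoter, chr7:135716380-135716529, minus strand: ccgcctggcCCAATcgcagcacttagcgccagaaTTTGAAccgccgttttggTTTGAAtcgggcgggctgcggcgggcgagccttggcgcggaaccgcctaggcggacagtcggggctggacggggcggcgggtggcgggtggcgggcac
Ccnb1 promoter, chr13:100786487-100786636, minus strand: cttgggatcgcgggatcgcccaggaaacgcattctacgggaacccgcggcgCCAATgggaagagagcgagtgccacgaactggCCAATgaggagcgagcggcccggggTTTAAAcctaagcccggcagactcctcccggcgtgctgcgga
Cenpf promoter, chr1:189688087-189688236, minus strand: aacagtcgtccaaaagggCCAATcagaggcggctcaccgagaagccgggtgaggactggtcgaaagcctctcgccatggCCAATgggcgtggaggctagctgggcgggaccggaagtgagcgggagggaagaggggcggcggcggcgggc
Rrm2 promoter, chr12:24708104-24708253, plus strand: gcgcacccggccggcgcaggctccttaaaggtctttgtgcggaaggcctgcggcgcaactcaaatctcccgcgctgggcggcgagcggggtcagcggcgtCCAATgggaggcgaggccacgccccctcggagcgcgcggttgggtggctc
Mcm6 promoter, chr1:128359706-128359855, minus strand: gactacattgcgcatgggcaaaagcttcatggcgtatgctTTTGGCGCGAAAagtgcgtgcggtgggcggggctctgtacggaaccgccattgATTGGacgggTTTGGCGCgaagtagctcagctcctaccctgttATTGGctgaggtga
In Top2a a homology region match begins 23 bases before the start and 4 CCAAT letters, on either strand, lie upstream of it. Kif11 has the pair closer together, 19 and 45 bases before the start. Mki67 holds 2 homology matches, 116 and 98 bases before the start. Ccnb1 has one match 42 bases before the start, below 2 CCAAT boxes. The bases shown for Cenpf hold 2 CCAAT boxes, and its homology matches lie outside them. Rrm2 shows a single CCAAT box. Mcm6 has no homology match but 3 E2F matches, of which 2 overlap and begin 110 and 106 bases before the start.

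By their median level per kb of exon in the controls, the G1 regulators and the replication genes stood above the mitosis genes. Cdk4, a kinase partner of the D-type cyclins, led the regulators with 24.0 CPM per kb in the progenitor and 27.5 CPM per kb in the postmitotic controls, followed by Ccnd2, the cyclin D2 gene, with 13.9 CPM per kb in the progenitor controls, and E2f1, an activating E2F factor. Pcna, the sliding clamp of DNA polymerases, led the replication genes with 16.3 and 18.01 CPM per kb. Mcm6 and Mcm7, subunits of the replicative helicase, followed in the progenitor controls, and Mcm7 and Rrm2 in the postmitotic ones. Among the mitosis members the highest were Hmgb2, a chromatin protein, with 5.61 and 5.70 CPM per kb, and the condensin subunits Smc4 and Smc2. The class medians in the progenitor controls were 2.96 CPM per kb for G1 regulators, 3.41 for replication and 1.55 for mitosis. Every member was measured well above 0. The lowest count in any library was 34 (Ccne2, an E-type cyclin) in the progenitor and 39 (Gmnn, geminin, an inhibitor of replication licensing) in the postmitotic table. Pcna and Ccnb2 are less certain, because the postmitotic table lists near copies with reads of their own: Pcna-ps2 had 354 to 391 counts beside 1006 to 1171 for Pcna, and Ccnb2-ps had 86 to 147 beside 51 to 111 for Ccnb2.

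The progenitor comparison concerns cortices whose dividing progenitors had received Cre, with the outcome read at postnatal day 5. Cell cycle genes were mostly higher in the libraries labelled mutant, with the larger median change among the mitosis members. Of the 47 members, 15 rose, 2 fell and 30 were not called; a call is a Benjamini-Hochberg adjusted p below 0.05, over all 15295 tested genes, in the quasi-likelihood test of edgeR. The same test called 12% of all tested genes higher and 11.4% lower. At an unadjusted p under 0.05 the test had 26 members higher and 2 lower, beside 2878 higher and 2798 lower of all 15295 tested genes. The median log2 fold change was 0.27 over the 47 members, 0.14 over the S phase members and 0.32 over the mitosis members, beside 0.00 over all tested genes. All 4 libraries labelled mutant lay above all 4 controls for 12 members and below them for 1, beside 13.7% and 13.3% of all tested genes.

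**Figure D2:**
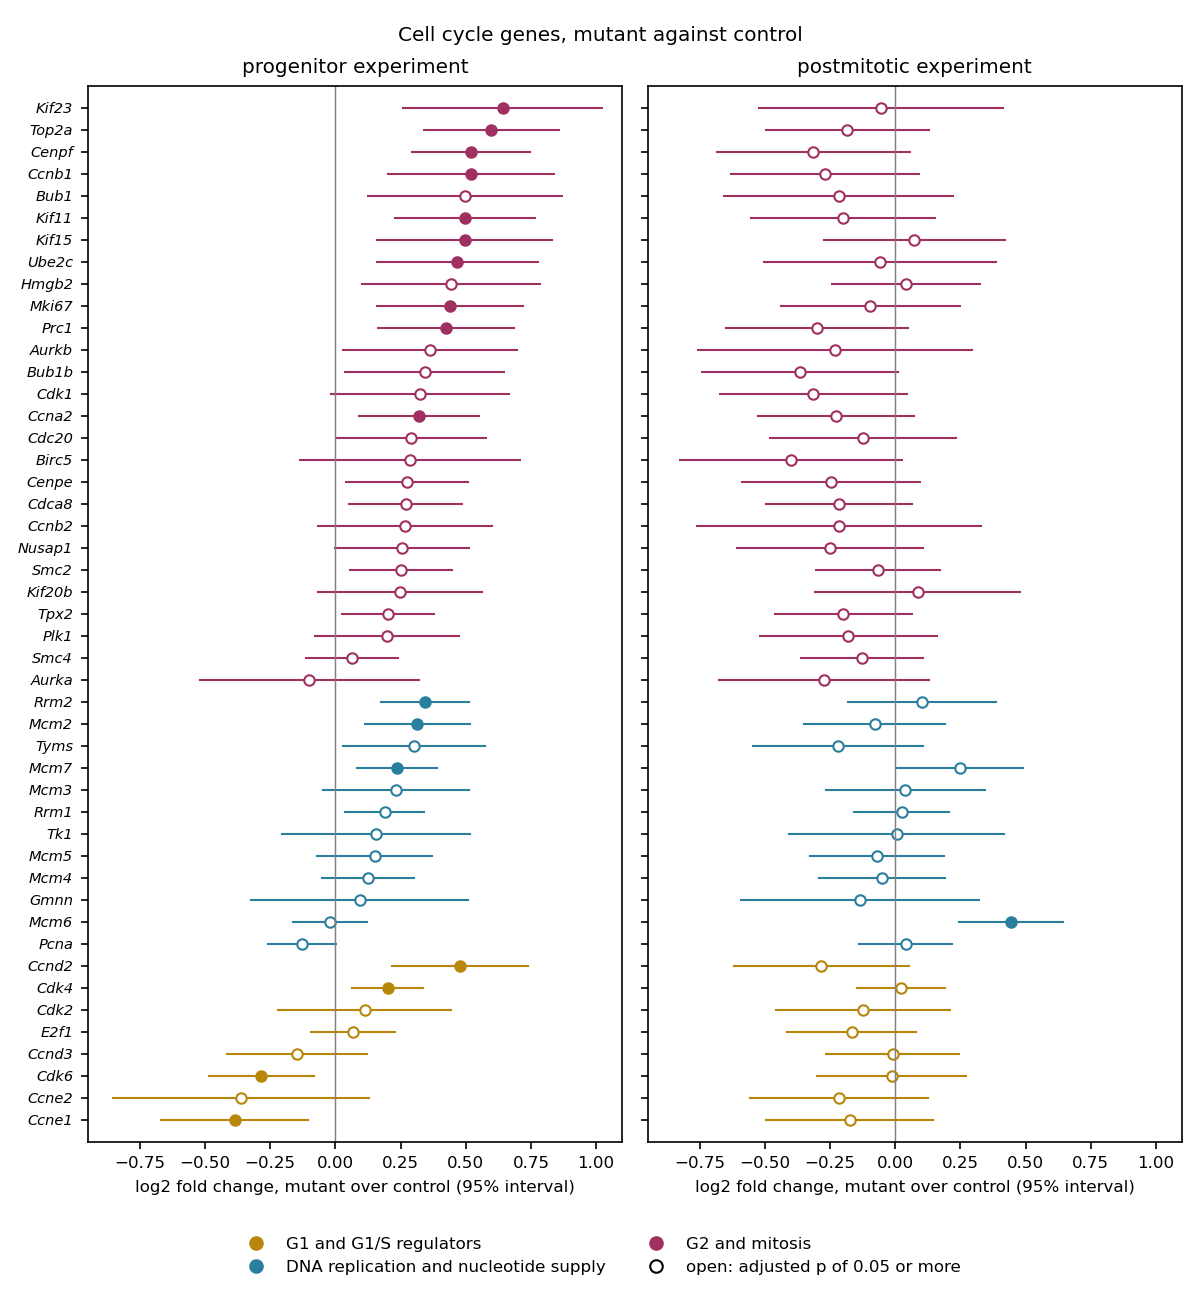
Log2 fold change of each of the 47 members, labelled mutant over control, with its 95% interval, in the progenitor (left) and postmitotic (right) experiments. Filled points have an adjusted p under 0.05: 17 on the left and 1, Mcm6, on the right. The mitosis members lie right of 0 in the progenitor experiment except Aurka, and 24 of 27 lie left of 0 in the postmitotic one.

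Of the 27 mitosis members 10 rose and none fell, and 26 had a positive log2 fold change. Top2a encodes topoisomerase II alpha, which untangles sister chromosomes. It stood at 21.99, 22.7, 30.5 and 23.5 CPM in controls 1 to 4 and at 41.0, 33.6, 33.0 and 41.7 CPM in the libraries labelled mutant 1 to 4. Control 3 was the highest control, and every library labelled mutant lay above it. The log2 fold change was 0.60 ± 0.12 (SE; adjusted p = 0.00527, Benjamini-Hochberg, quasi-likelihood test of edgeR), a rise from a mean of 24.7 to 37.3 CPM. Cenpf, a large kinetochore protein of G2 and mitosis, had 11.03, 12.4, 13.1 and 13.2 CPM in controls and 19.3, 16.5, 15.3 and 20.4 CPM under the mutant label, again without overlap. It rose by 0.52 ± 0.10 (adjusted p = 0.00475, same edgeR test), the smallest adjusted p of the 47. Mki67, the source of the Ki-67 antigen of cycling cells, had 25.9, 29.6, 36.1 and 26.5 CPM in controls and 44.2, 35.0, 35.2 and 45.8 CPM under the mutant label. Control 3 overlapped labelled mutants 2 and 3, and the rise was 0.44 ± 0.13 (adjusted p = 0.0307, same edgeR test).

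Of the mitotic kinesins among the members, Kif11, Kif15 and Kif23 rose. Kif11, which pushes spindle poles apart, had 8.51, 7.44, 10.4 and 7.22 CPM in controls and 11.6, 11.2, 11.5 and 13.2 CPM in the libraries labelled mutant. The groups did not overlap, and it rose by 0.50 ± 0.12 on the log2 scale. Kif23, a motor of the central spindle needed for cytokinesis, had 3.09, 3.85, 5.55 and 3.92 CPM in controls and 7.09, 6.04, 5.56 and 6.96 CPM under the mutant label. Control 3 all but reached labelled mutant 3, and the log2 fold change of 0.64 ± 0.17 was the largest of any member. Kif15, a motor that stabilises spindle bipolarity, had controls from 4.62 to 6.95 CPM and libraries labelled mutant from 7.05 to 9.86 CPM, and rose by 0.50 ± 0.15. Prc1, the microtubule bundler of the central spindle, rose by 0.42 ± 0.12, from 9.002 to 12.4 CPM in controls to 11.8 to 15.7 CPM under the mutant label, with overlap. Kif20b, another cytokinesis motor, stood at 0.25 ± 0.14 and was not called.

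Of the cyclins of G2 and mitosis, Ccna2 and Ccnb1 rose and Ccnb2 was not called. Ccnb1, cyclin B1, had 6.68, 6.37, 7.36 and 5.50 CPM in controls and 11.9, 7.93, 9.13 and 8.17 CPM in the libraries labelled mutant, and rose by 0.52 ± 0.15 (adjusted p = 0.0247, Benjamini-Hochberg, quasi-likelihood test of edgeR). Labelled mutant 1 stood above the rest of its group, though the groups did not overlap. Ccna2, cyclin A2, rose by 0.32 ± 0.10, with controls at 8.51 to 10.7 CPM and libraries labelled mutant at 10.5 to 13.1 CPM, which overlap. Ube2c, the ubiquitin-conjugating enzyme of the anaphase-promoting complex, rose by 0.47 ± 0.14, from 3.78 to 4.98 CPM to 4.83 to 6.47 CPM. Genes on the opposite strand overlap Ccna2 (Exosc9), Prc1 (Rccd1) and Ube2c (Tnnc2), and the sources used here do not give the strand setting of the counts. Other opposite-strand genes overlap the called members Top2a (Gm26394), Cenpf (Gm37239), Mki67 (Gm45240) and Kif11 (AC137605.6). The same holds for Ccnd2 (9330179D12Rik, Gm43126) and Cdk6 (Gm17590, Gm42435). Cdk1, the partner kinase of the A and B cyclins, stood at 0.32 ± 0.16 and was not called (adjusted p = 0.155, same edgeR test).

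The other 17 mitosis members were not called, and all but one had a positive log2 fold change. The checkpoint kinase Bub1 (0.50 ± 0.17) and the chromatin protein Hmgb2 (0.44 ± 0.15) had the largest values among them, and for Bub1 and for Cdca8, of the chromosomal passenger complex, the groups did not overlap. The exception was Aurka, a kinase of the spindle poles, at -0.10 ± 0.19. Aurkb, the related kinase of the passenger complex, stood at 0.36 ± 0.15, and Plk1, another mitotic kinase, at 0.20 ± 0.13. The condensin subunit Smc4 stood nearest 0 of the positive ones, at 0.06 ± 0.08, with its partner Smc2 at 0.25 ± 0.09. Birc5, Bub1b, Ccnb2, Cdc20, Cenpe, Kif20b, Nusap1, Tpx2 and Cdk1 lay between 0.20 and 0.34.

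**Figure D3:**
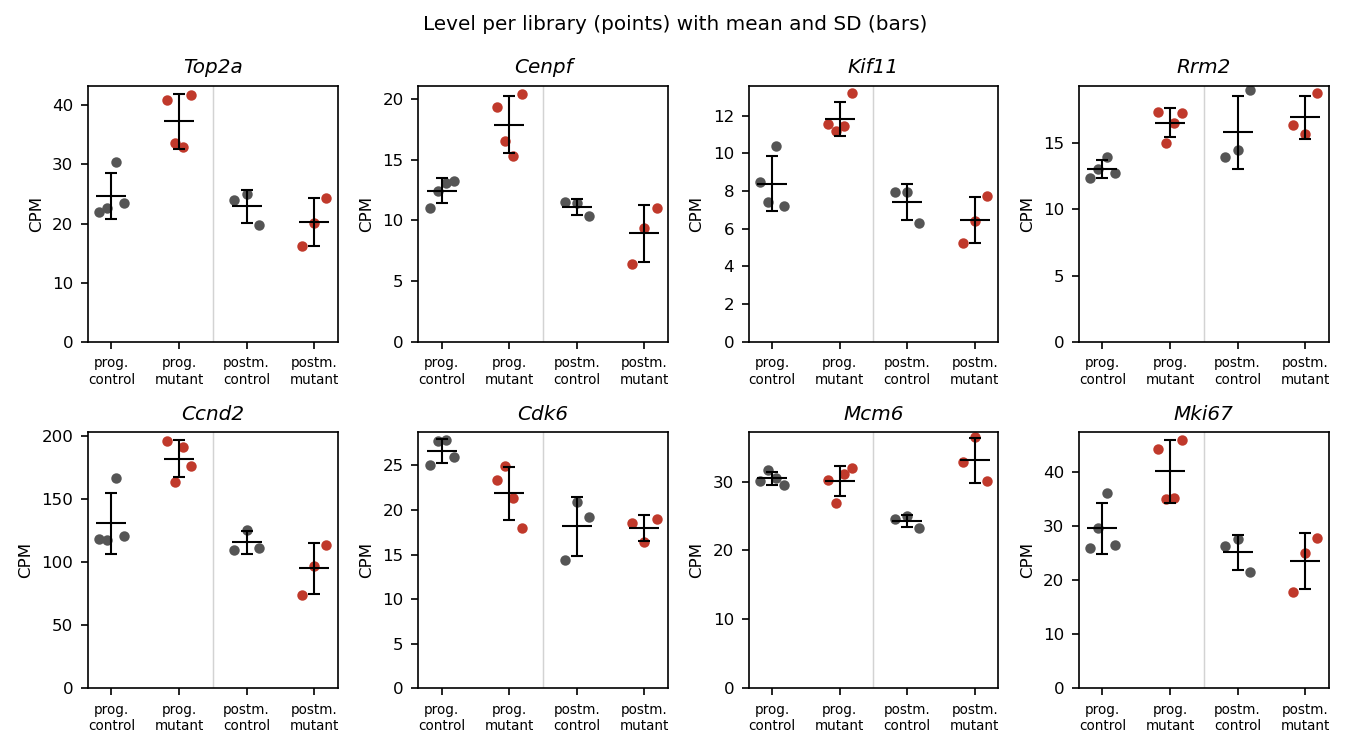
CPM of 8 members in every library (points; grey control, red labelled mutant), with the mean and SD of each group, progenitor experiment left of the line and postmitotic experiment right of it. Top2a, Cenpf, Kif11 and Rrm2 separate the progenitor groups without overlap, Cdk6 is lower under the mutant label, and Mcm6 goes from a mean of 24.3 to 33.1 CPM in the postmitotic experiment.

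Of the 12 replication genes, 3 rose and none fell, with a median log2 fold change of 0.17. Rrm2, the regulated subunit of ribonucleotide reductase, which makes deoxyribonucleotides, had 12.4, 13.0, 13.9 and 12.7 CPM in controls and 17.3, 14.96, 16.5 and 17.3 CPM in the libraries labelled mutant. The groups did not overlap, and it rose by 0.34 ± 0.08 (adjusted p = 0.00915, Benjamini-Hochberg, quasi-likelihood test of edgeR). Mcm2, a helicase subunit, had 12.1, 11.5, 15.03 and 13.1 CPM in controls and 16.5, 15.1, 17.0 and 15.6 CPM under the mutant label, and rose by 0.31 ± 0.09. Mcm7 rose by 0.24 ± 0.07, from 24.6 to 29.1 CPM in controls to 30.5 to 35.0 CPM, but it overlaps Ap4m1 and Cops6 on the opposite strand. Of the helicase subunits only Mcm2 and Mcm7 were called, and no test compared the subunits with each other. Mcm3, Mcm4 and Mcm5 stood at 0.23, 0.12 and 0.15 without a call, and Mcm6 at -0.02 ± 0.06, with a 95% interval from -0.16 to 0.12. Pcna stood at -0.13 ± 0.06. Tyms (thymidylate synthase, 0.30 ± 0.12), Rrm1 (the large ribonucleotide reductase subunit, 0.19 ± 0.07), Tk1 (thymidine kinase, 0.16 ± 0.16) and Gmnn (0.09 ± 0.19) were not called.

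The 8 regulators of G1 split in both directions, with a median of -0.04. Ccnd2, the cyclin of proliferating cortical progenitors, had 118, 117, 167 and 121 CPM in controls and 196, 164, 191 and 176 CPM in the libraries labelled mutant. Control 3 stood apart from the other controls and overlapped labelled mutant 2, and Ccnd2 rose by 0.48 ± 0.12 (adjusted p = 0.0172, Benjamini-Hochberg, quasi-likelihood test of edgeR). Cdk4 rose by 0.20 ± 0.06, from a mean of 77.8 to 89.5 CPM, but Tspan31 overlaps it on the opposite strand. Cdk6, the other kinase that works with D-type cyclins, fell by 0.28 on the log2 scale. It had 25.0, 27.7, 27.8 and 25.9 CPM in controls and 23.3, 24.9, 21.3 and 17.98 CPM under the mutant label, the one member with all libraries labelled mutant below all controls. Ccne1, cyclin E1, fell by 0.39 on the log2 scale (SE 0.13), from 8.80 to 12.3 CPM in controls to 7.03 to 8.83 CPM. Ccne2 stood at -0.36 ± 0.22 and Ccnd3 at -0.15 ± 0.12, and E2f1 and Cdk2 at 0.07 ± 0.07 and 0.11 ± 0.15; none of these was called.

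Within the groups, a few libraries set the extremes. For the 27 mitosis members the highest library was labelled mutant 4 for 11 genes and labelled mutant 1 for 10. Control 4 was lowest for 11, control 2 for 8 and control 1 for 7. Their summed level was 247 to 305 CPM in controls and 304 to 370.4 CPM in the libraries labelled mutant, with control 3 just above labelled mutant 2. The S phase members summed to 469 to 566 CPM and 533 to 601 CPM, with overlap. Leaving out 1 library at a time, the members called ranged from 5, without control 2, to 23, without control 3. They were 9 without control 1 and 7 without control 4 or any of labelled mutants 1, 3 and 4. Ccnd2, Rrm2, Top2a, Cenpf and Kif11 kept their calls in all 8 such fits, and each of the other 12 lost it in 4 to 7 of them.

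Y-linked counts went with the labels in this experiment. With Y-linked level as a covariate, 3 of the 17 calls were kept, those of Top2a, Cenpf and Ccnb1. The median of the mitosis members was then 0.45 and that of the S phase members 0.23. In that fit the label effect rests largely on labelled mutant 1, the highest library for 10 of the 27 mitosis members. All other libraries labelled mutant hold Y-linked counts and no control does, so the fit cannot separate sex from label. With the 4 controls set against labelled mutant 1, the only other library without Y-linked counts, the medians were 0.44 and 0.22 and no member was called, in a fit that takes the spread of the single library from the controls. Apart from that library, the sex of the animals and the label cannot be told apart in this experiment.

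Marker genes of other cell types, several of which divide at this age, were counted beside the members. The counts of markers stand beside 12% of all tested genes called higher and 11.4% called lower. Among 15 endothelial and mural markers 4 rose and 0 fell, and their sum was 410 to 593 CPM in controls and 492 to 693 CPM in the libraries labelled mutant. Control 3 and labelled mutant 1 had the highest sum of their groups for these markers and for the 47 members alike. The microglia and macrophage markers had the same top libraries (307 and 243 CPM), though all of them had negative log2 fold changes. For the mitosis members alone labelled mutant 4 was highest (370.4 CPM, labelled mutant 1 367 CPM). Control 3 was also the highest control for radial glia and astrocyte markers (4835 CPM) and for oligodendrocyte precursor markers (665 CPM). Among 11 oligodendrocyte precursor markers 2 rose and 1 fell, 8 were negative and the median log2 fold change was -0.11, with sums of 562 to 665 and 581 to 689 CPM. The proteoglycan Cspg4 rose by 0.46 and the receptor Pdgfra by 0.34 on the log2 scale, and Neu4 fell by 0.78. Cspg4 is also in the endothelial and mural list, so its rise is counted in both lists. Among 7 tested intermediate progenitor markers 3 rose and 1 fell, and their sums of 210.1 to 234 CPM and 243 to 256 CPM did not overlap. Neurog1, a defining marker of that list, was at 0 in every library of both tables. Of 20 radial glia and astrocyte markers 2 rose (Tnc by 0.93 and Nes by 0.55) and 4 fell, with a median of 0.02. On the log2 scale Gfap fell by 1.23, Slc1a2 by 0.62, Glul by 0.38 and Aldoc by 0.38. Of 16 microglia and macrophage markers 0 rose and 2 fell, and all 16 were negative, with a median of -0.37. Red blood cell markers summed to 5.95 to 10.1 CPM in controls and 12.4 to 18.01 CPM in the libraries labelled mutant, without overlap. Of that list Alas2, the heme synthesis enzyme of red cells, rose by 1.05 ± 0.16, while 4 of the 7, the globin genes Hba-a1, Hba-a2, Hbb-bs and Hbb-bt, are listed at 0 in every progenitor library. The part of any of these cells in the change of the cell cycle genes was not tested.

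**Figure D4:**
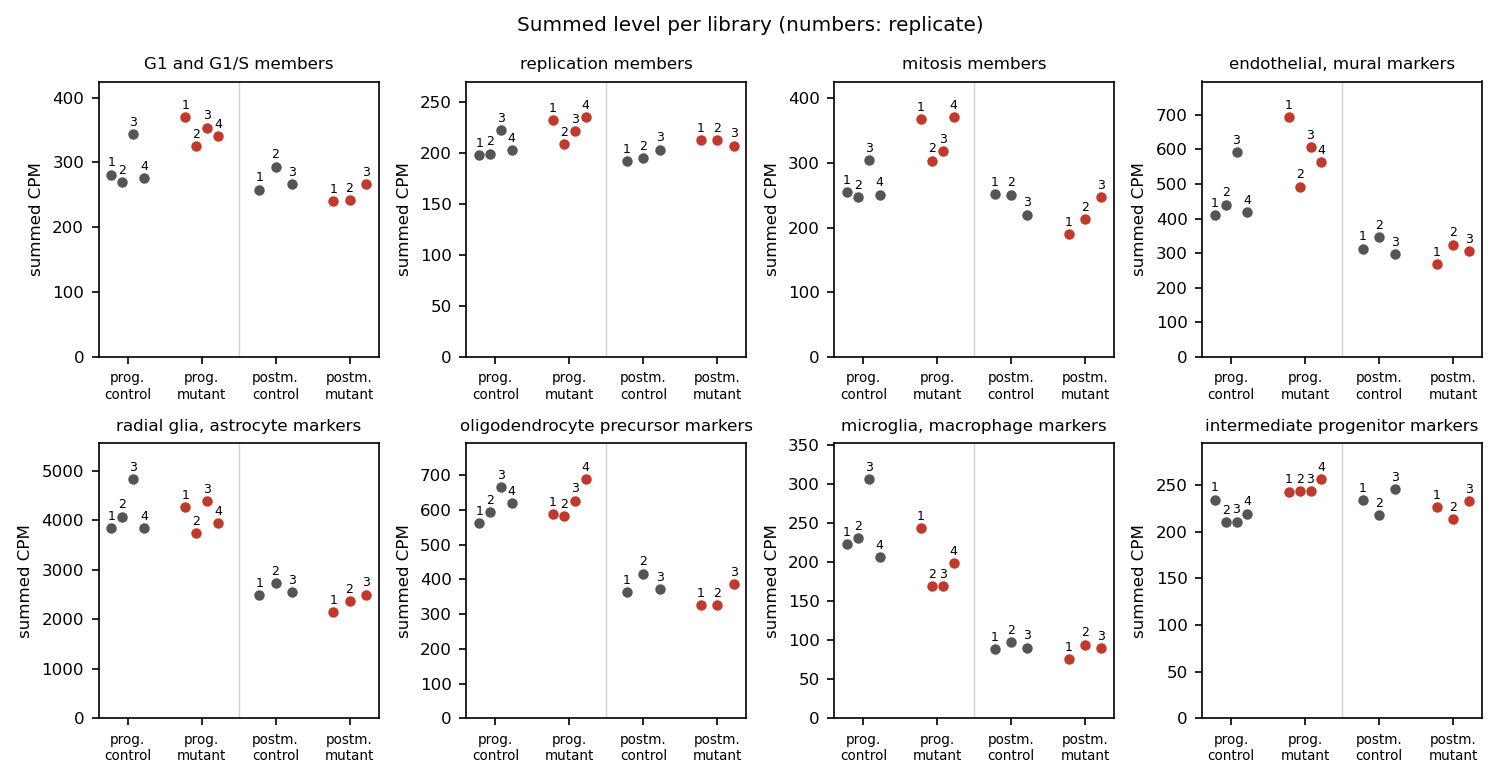
Summed CPM per library of the members by role and of 5 marker lists; numbers beside the points are replicates, grey is control and red is labelled mutant. In the progenitor experiment control 3 is the highest control for every list shown except the intermediate progenitor markers. It reaches 305 CPM for the mitosis members and 593 CPM for endothelial and mural markers.

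Other genes of the cycle, from lists chosen by textbook role, were tested in the same fit, which called 12% of all tested genes higher and 11.4% lower. Of 38 further replication genes 10 rose and none fell, with a median log2 fold change of 0.24. Pole, the leading-strand polymerase, rose by 0.48 ± 0.09, Nasp, a histone chaperone, by 0.26 ± 0.05, and Dbf4, the activator of the Cdc7 kinase, by 0.53 ± 0.11. Of 61 further mitosis genes 18 rose and none fell, with a median of 0.30, among them Lmnb1 (lamin B1, 0.42 ± 0.05), Nuf2 (a kinetochore subunit, 0.65 ± 0.12) and Arhgap11a (0.55 ± 0.12). The inhibitors of cyclin-dependent kinases went both ways: of 6 tested, 1 rose and 2 fell. Cdkn1a, which encodes p21 and is a target of p53, fell from 33.0 to 40.6 CPM in controls to 12.9 to 19.4 CPM, a log2 fold change of -1.12 ± 0.12 (adjusted p = 0.000294, Benjamini-Hochberg, quasi-likelihood test of edgeR). Cdkn2d, an inhibitor of Cdk4 and Cdk6, fell by 0.39 on the log2 scale, and Cdkn2c, of the same family, rose by 0.45 ± 0.11. Of 12 RB and E2F family genes Rbl1, the p107 pocket protein, rose by 0.66 ± 0.10 and Rb1 fell by 0.23 on the log2 scale. Of 17 subunits and partners of the anaphase-promoting complex Cdc16 and Anapc1 rose, by 0.22 and 0.17, a share near that of all tested genes. Of the 8 genes of the MuvB, Myb and FoxM1 complex, which acts at homology regions, 0 were called, with Foxm1 at 0.30 ± 0.11 and Mybl2 at 0.49 ± 0.19.

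The postmitotic comparison asks the same of a deletion directed to neurons that no longer divide. Only Mcm6 of the 47 members was called, and it rose. The test called 0.895% of all 17775 tested genes higher and 1.06% lower. Mcm6 lies on chromosome 1, 128331590 to 128359664, minus strand (GRCm38, GENCODE M21). It had 24.5, 25.0 and 23.3 CPM in controls 1 to 3 and 32.8, 36.5 and 30.01 CPM in the libraries labelled mutant 1 to 3. The groups were well apart, and the log2 fold change was 0.45 ± 0.09 (adjusted p = 0.0235, Benjamini-Hochberg, quasi-likelihood test of edgeR). The call was lost in 5 of the 6 fits that left out 1 library, all but the one without labelled mutant 3, with adjusted p up to 0.131 (same edgeR test) and log2 fold changes from 0.37 to 0.51. In the 3 libraries without Y-linked counts, control 3 and labelled mutants 1 and 2, the log2 fold change was 0.57. In the 3 with them, controls 1 and 2 and labelled mutant 3, it was 0.28. Each of these has a single library on one side, so they are given as values only. Its neighbours on chromosome 1 did not share the rise: Dars stood at 0.06, Lct at 0.13, Ubxn4 at -0.04 and R3hdm1 at -0.30, none of them called; these were looked up after the value of Mcm6 was seen. Its helicase partner Mcm7 had 25.6, 25.9 and 27.4 CPM in controls and 32.5, 35.7 and 25.6 CPM under the mutant label, where labelled mutant 3 stayed at the level of the controls (log2 fold change 0.25 ± 0.11, not called). The other helicase subunits lay between -0.08 and 0.04.

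The mitosis members had mostly negative log2 fold changes in the postmitotic experiment, but none passed the test. Their median was -0.22, and 24 of 27 were negative, beside a median of 0.00 over all tested genes. None had an unadjusted p under 0.05, beside 966 higher and 1058 lower of all 17775 tested genes. DESeq2 and limma-voom called 0 of the mitosis members as well. Libraries of each label overlapped for all but Cdca8, which was below the controls. All libraries labelled mutant were above all controls for 1 of the 47 members and below them for 1, beside 7.98% and 8.44% of all tested genes. Top2a had 24.0, 25.0 and 19.7 CPM in controls and 16.2, 20.1 and 24.3 CPM under the mutant label. Labelled mutant 1 was lowest and labelled mutant 3 at the level of the controls, a spread that recurred: labelled mutant 1 was the lowest library for 15 of the 27 mitosis members, and labelled mutant 2 for 8. This spread went with the Y-linked counts. The mitosis members summed to 252 and 251 CPM in controls 1 and 2 and 247 CPM in labelled mutant 3, which hold such counts. Without such counts, control 3 had 220 CPM and labelled mutants 1 and 2 had 190 and 213 CPM. Whether sex had a part in these values was not tested. Cenpf had 11.5, 11.4 and 10.3 CPM and 6.39, 9.40 and 11.03 CPM. Ccnd2 had 110, 126 and 111 CPM in controls and 74.0, 97.0 and 114 CPM under the mutant label (log2 fold change -0.28 ± 0.14, not called). The median of the mitosis members was -0.42 in libraries 1 and 2 of each group alone. There the controls held Y-linked counts and the libraries labelled mutant did not, so sex and label cannot be told apart. Labelled mutant 1 also had the lowest marker sums for endothelial and mural cells (268 CPM, controls 297 to 346 CPM). The same held for microglia (75.8 CPM, controls 88.2 to 97.8 CPM) and for radial glia and astrocytes (2149 CPM, controls 2491 to 2724 CPM). It held too for layer II/III neurons, which have left the cycle (4297 CPM, controls 4363 to 4699 CPM). Sums of oligodendrocyte precursor and intermediate progenitor markers were lowest in labelled mutant 2, at 325 and 213 CPM. Of the radial glia and astrocyte markers 18 of 20 were negative, with a median of -0.18, and 6 lay below all controls. Of the oligodendrocyte precursor markers 9 of 11 were negative, with a median of -0.21. In the layer II/III list 1 gene rose and 3 fell, beside 0.895% higher and 1.06% lower of all tested genes. That list holds Neurod6, from which NexCre is expressed, and only the libraries labelled mutant carry NexCre. No gene of the other lists of cell markers named here was called. The part of any of these cells in the values of the members was not tested. None of the further replication and mitosis genes, kinase inhibitors, or RB and E2F family genes was called either, with medians of -0.02, -0.04, -0.16 and -0.05.

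In the authors' deposited tables of DESeq2 results, 17 members were higher and 2 lower in the progenitor experiment, the 17 called here and also Bub1 and Hmgb2. In the authors' deposited table for the postmitotic experiment Mcm6 was higher (log2 fold change 0.49, adjusted p = 0.0397) and Ccnd2 lower (log2 fold change -0.45, adjusted p = 0.0426). The mean counts of all 47 members in that deposited table matched those of libraries 1 and 2 of each group within 0.1%, and those of all 6 libraries for 1 member. Controls 1 and 2 held Y-linked counts and labelled mutants 1 and 2 did not, so sex and label cannot be told apart among those libraries.

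The change differed between the experiments for 6 members. In a single fit of all 14 libraries, the interaction of experiment and label called Ccnd2, Top2a, Cenpf, Ccnb1 and Prc1 more positive in the progenitor experiment and Mcm6 more negative. The same test called 3.84% of 15643 tested genes more positive and 3.1% more negative. The difference in log2 fold change was 0.84 ± 0.20 for Cenpf (adjusted p = 0.0216, Benjamini-Hochberg, quasi-likelihood test of edgeR), 0.79 ± 0.23 for Ccnb1, 0.78 ± 0.20 for Top2a, 0.76 ± 0.20 for Ccnd2, 0.72 ± 0.20 for Prc1 and -0.47 ± 0.11 for Mcm6 (adjusted p = 0.0168, same edgeR test). All 27 mitosis members had a positive difference, with a median of 0.53. Of them 17 had an unadjusted p under 0.05, beside 1943 of all 15643 tested genes with a positive difference. For 23 of the 27 the log2 fold change was positive in the progenitor and negative in the postmitotic experiment, for 3 positive in both and for 1, Aurka, negative in both. The replication members had a median difference of 0.18, and Mcm7, at 0.24 and 0.25, had nearly equal log2 fold changes in the experiments (difference -0.01, 95% interval -0.30 to 0.27). The difference for Mcm6 was called in each of 14 fits that left out 1 library, and that for Cenpf in 12. The others lost their call in 9 to 11 of them, and without postmitotic control 1 or control 2 only Mcm6 was called. Y-linked counts were unbalanced in opposite directions in the experiments. In the progenitor experiment 0 of 4 controls and 3 of 4 libraries labelled mutant held them. In the postmitotic one it was 2 of 3 controls and 1 of 3 libraries labelled mutant. No fit of the difference took account of them, so the difference was not separated from sex.

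**Figure D5:**
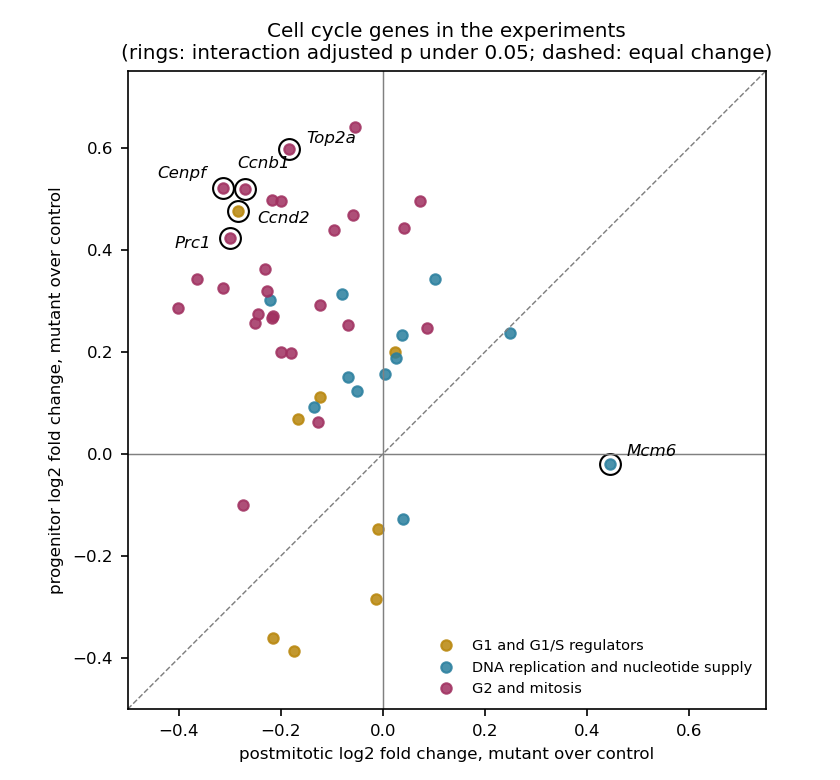
Log2 fold change of each member in the postmitotic (horizontal) and progenitor (vertical) experiments; the dashed line marks equal change and rings mark the 6 members with an interaction adjusted p under 0.05. The mitosis members gather at upper left, and Mcm6 lies alone at the right, at 0.45 and -0.02.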

How the data were processed

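Polyadenylated RNA of 14 mouse cortex libraries in 4 groups was sequenced. Per the submitters' processing notes, the authors used HISAT2, featureCounts and DESeq2 with mm10, and the sources used here do not give versions, annotation or strand setting. The deposited count tables hold raw counts by gene symbol, 25229 symbols in the progenitor and 55353 in the postmitotic table, 24690 of them in both, and 0 columns of counts could not be mapped to a sample. The authors' deposited DESeq2 tables hold log2 fold changes, the p-value and adjusted p-value of each gene, base means (a signal, the mean of scaled counts) and, as score columns, standard errors and Wald statistics. Missing values are written there as 0, also within some symbols, which were restored from the count tables, and an adjusted p of 0 was read as missing. These tables were used only where named.

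Groups came from the sample titles. In R 4.3.3, edgeR 4.0.16 (filterByExpr, TMM factors, robust quasi-likelihood fit) tested label against control within each experiment, with the groups of that experiment only, and the interaction over symbols of both tables in 1 fit of all libraries. Adjusted p-values (Benjamini-Hochberg, threshold 0.05) cover all tested genes. The alternatives were DESeq2 1.42.0, limma 3.58.1 with voom, RLE or upper-quartile factors, no filter or one at 1 CPM, a fit that was not robust, the replicate number as a block, Y-linked level as a covariate, libraries 1 and 2 of the postmitotic experiment, and each library left out. Fits on libraries with or without Y-linked counts were chosen after seeing the data. Promoters are from RefSeq (GRCm38.p6), and positions, overlaps and exon lengths from GENCODE M21. Tests were checked on simulated counts.

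Members and gene lists were chosen with earlier results of these data known. All members are accounted for; in full were given those called in any comparison and the 3 with the highest control level per kb in each class, with up to 3 called genes of a pathway list and 2 of a marker list. Neu4, Tnc, Nes, Gfap and Aldoc, of the marker lists, were named after their values were seen. For members with few counts, such as Gmnn with 39 to 45 in the postmitotic libraries, counting error is a large part of the spread between libraries.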

Additional observations from a re-analysis of the deposited data

Results flagged for a closer look

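In 7 cases 1 progenitor library stood far from the other libraries of its group, by Dixon's criterion at 95%; chance gives such a case in about 1 of 20 groups, or 4.7 of the 94 groups of 4 libraries looked at. Control 3 was high for Ccnd2 (167 CPM, the other controls 117 to 121 CPM), for Ccnd3, a D-type cyclin (23.1 CPM, others 17.1 to 17.9 CPM), and for Aurkb (5.17 CPM, others 3.65 to 3.89 CPM). Control 2 was low for Cdca8, at 6.98 CPM beside 8.31 to 8.46 CPM. Among the libraries labelled mutant, library 2 was low for Aurkb (4.35 CPM, others 5.61 to 5.68 CPM), library 3 low for Plk1 (6.81 CPM, others 7.80 to 7.92 CPM), and library 4 high for Kif15 (9.86 CPM, others 7.05 to 7.31 CPM).

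For 6 members the interaction test found the log2 fold change to differ between the experiments. It was more positive in the progenitor experiment by 0.84 for Cenpf, 0.79 for Ccnb1, 0.78 for Top2a, 0.76 for Ccnd2 and 0.72 for Prc1. For Mcm6 the progenitor value minus the postmitotic one was -0.47. No fit of these differences took account of Y-linked counts.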

How the results depend on the processing

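Of 432 values for called members under an alternative 274 kept their call, 158 lost it and 0 changed direction. In the progenitor experiment, the S phase members called lower went from 2 to 1, losing Ccne1, with limma-voom, upper-quartile factors or no robust step. With the Y-linked covariate 3 members were called (948 of all genes, 3577 without it), all of them mitosis members called higher. It gave 0 S phase members higher and 0 lower and an S phase median of 0.23. The label effect in that fit rests largely on labelled mutant 1. In the libraries without Y-linked counts, a choice made after seeing the data that leaves 1 library labelled mutant, members called, S phase members higher or lower and mitosis members higher were each 0 (393 of all genes). In the postmitotic experiment, no filter on low counts gave 2 members called, of them 1 S phase member lower (723 of all genes against 348), and DESeq2 called 527 genes. The mitosis median was -0.42 in libraries 1 and 2, where the controls but not the libraries labelled mutant held Y-linked counts. The S phase median was -0.12 in the libraries without Y-linked counts (1 control). In those with them (1 library labelled mutant), also chosen after seeing the data, 0 members were called, 0 S phase members were higher and the mitosis median was -0.036. A fit with 1 library on a side takes its spread from the other group, so its missing calls say nothing about stability. For the difference between experiments, limma-voom called 2 mitosis members more positive, losing Ccnb1 and Prc1. Replicate numbers did not pair the libraries: deviations of same-numbered libraries correlated at -0.44, 0.05, -0.18 and 0.08 in the progenitor and at -0.11, 0.04 and -0.19 in the postmitotic experiment. With the replicate number as a block, 14 progenitor members were called, without Cdk4, Mki67, Ccna2 and Kif15. The block left 0 postmitotic members and 0 S phase members higher (Mcm6 at adjusted p = 0.0653, edgeR), and 3 members in the difference with 1 mitosis member more positive (659 of all genes against 1086). Leaving out 1 library, the progenitor calls ranged from 5 to 23 members, 2 to 6 S phase members higher, 0 to 1 lower and 3 to 16 mitosis members higher, with S phase medians of 0.10 to 0.22 and mitosis medians of 0.26 to 0.47. The postmitotic calls ranged from 0 to 1 member and 0 to 1 S phase member higher (160 to 467 of all genes). In the difference they ranged from 1 to 14 members, 0 to 2 S phase members and 0 to 11 mitosis members more positive. The causes of these changes were not tested.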
